A study of Mus musculus with 7 samples.

Results

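Pericytes are the mural cells that sit on capillaries and other small vessels, where they share a basement membrane with the endothelium, steady the vessel wall and regulate its growth and tone. Larger vessels are covered instead by smooth muscle cells (SMCs). Both mural cell types depend on signaling through the receptor encoded by *Pdgfrb*, and in the heart many of them derive from the epicardium, the outer cell layer that also gives rise to fibroblasts. The pericytes described here are the cells that carry this name in the authors' final annotation of wild-type mouse hearts. They number 726 of 52802 wild-type cells, with 349 of 27445 cells in CD1, an outbred stock, and 377 of 25357 cells in C57BL/6, an inbred strain. Another 79 C57BL/6 cells that the authors had marked for exclusion were left out, and none of them carried the pericyte name.

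The hearts came from untreated wild-type CD1 mice at 18 stages (E9.5 to P9) and untreated wild-type C57BL/6 mice at 17 stages (E10.5 to P9). They were dissected into left and right atria (LA, RA) and left and right ventricles (LV, RV), with the atrioventricular canal and the septum kept with the LV, and several hearts of a stage were pooled. Each chamber of a stage was labeled with its own lipid-anchored DNA barcode (MULTI-seq) and the chambers were loaded together for droplet single cell RNA-seq. CD1 was profiled in 3 experiments (E9.5 to P3, E18 and P1, P2 to P9) and C57BL/6 in 2 (E10.5 to P4, P5 to P9), which gave 80 and 68 samples of 1 stage, 1 chamber and 1 experiment. A sample is therefore 1 pool of hearts, and only P1 and P2 of CD1 were taken in more than 1 experiment.

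The CD1 samples held between 11 and 486 non-myocytes (median 113.5) and the C57BL/6 samples between 6 and 3213 (median 149). Every pericyte passed the authors' filter, and pericytes carried between 2033 and 38134 UMIs in CD1 and between 2055 and 31716 in C57BL/6. Of the cell barcodes, 76 in CD1 and 64 in C57BL/6 occurred in more than 1 well, and 2 and 3 pericytes carried such a barcode. The authors named pericytes by *Kcnj8* and *Pdgfrb* among cells first called fibroblast-like (Fb_like). Gene values were not used here, so the name could not be checked against these markers. What could be checked was where the cells lay in the clustering of all cells. One cluster of each strain held 341 of the 349 CD1 pericytes and 368 of the 377 C57BL/6 pericytes. The same cluster held all 182 SMCs of CD1 and 160 of the 161 SMCs of C57BL/6 but only 17 and 23 Fb_like cells, so it is called the mural cluster below. The 8 and 9 pericytes outside it lay in clusters made up almost wholly of Fb_like cells.

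No pericyte was found in CD1 at E9.5 among 182 non-myocytes, where a count of 0 allows a share of up to 1.65%, or at E10.5 among 275, which allows up to 1.09%. The earliest CD1 pericyte was 1 RV cell at E11.5. It lay outside the mural cluster and had 27312 UMIs and 5609 detected genes, the highest UMI count of any pericyte in its experiment. Its doublet score was 0.405, against a median of 0.1025 and an upper quartile of 0.190 over all CD1 pericytes. The first CD1 pericytes inside the mural cluster were 4 cells at E12.5, of which 2 were from the LV and 2 from the RV, with 12006 to 14556 UMIs. In C57BL/6, 2 pericytes were already present at E10.5, the earliest stage taken from this strain, 2 at E11.5 and 1 at E12.5. Of these 5 cells, 3 were from the RA and 2 from the LV, and 4 lay in the mural cluster. Their depth was uneven, from 2825 UMIs and 1384 genes in the E10.5 LV cell to 16935 UMIs and 3819 genes in the E10.5 RA cell.

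The strains cannot be ordered by first appearance at this depth. The pericyte share at E10.5 was 0.604% of non-myocytes in C57BL/6, with an exact (Clopper-Pearson) 95% binomial interval of 0.0733 to 2.17%, and the limit for CD1 lay inside that interval. Up to E12.5 each strain had 5 pericytes, among 1285 non-myocytes in CD1 and 1541 in C57BL/6. Vascular endothelial cells (Vas_ECs), the cells that pericytes cover, were themselves rare at these stages, with 44 in CD1 and 30 in C57BL/6. From E13.5 on pericytes were found at every stage of both strains.

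The share is the percent of the non-myocytes of a sample that were pericytes, averaged over the samples of a stage with at least 10 non-myocytes. It rose with stage in both strains. In CD1 the mean over samples was 0.216% at E11.5, 0.798% at E12.5, 1.26% at E13.5 and 1.83% at E14.5. It was 3.89% at E15.5 and reached 5.90% at E18. From P0 to P9 it lay between 3.59% at P1 and 6.53% at P7. In C57BL/6 the share was between 0.490% and 0.837% from E10.5 to E12.5, then 2.18% at E13.5 and 1.75% at E14.5. It climbed to 7.49% at E18.5, and after birth it ranged from 2.56% at P2 to 8.30% at P9. The early C57BL/6 means rested on few cells. At E12.5 the only pericyte was 1 of 51 RA non-myocytes, and with all chambers pooled the share was 0.0987%. At E13.5 the RA value was 4.55%, from 1 pericyte among 22 non-myocytes, and the pooled share was 0.642%. Averaged over stages, the share was 0.454% ± 0.555 (SD over 5 stages) from E9.5 to E13.5, 3.95% ± 1.502 (5 stages) from E14.5 to E18 and 4.89% ± 1.07 (8 stages) after birth in CD1. The same 3 averages in C57BL/6 were 1.05% ± 0.764 (4 stages), 4.05% ± 2.23 (5 stages) and 4.82% ± 1.69 (8 stages). The larger step in both strains was thus from the first to the second of these periods, and the postnatal stages overlapped with the late fetal ones.

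**Figure D1:**
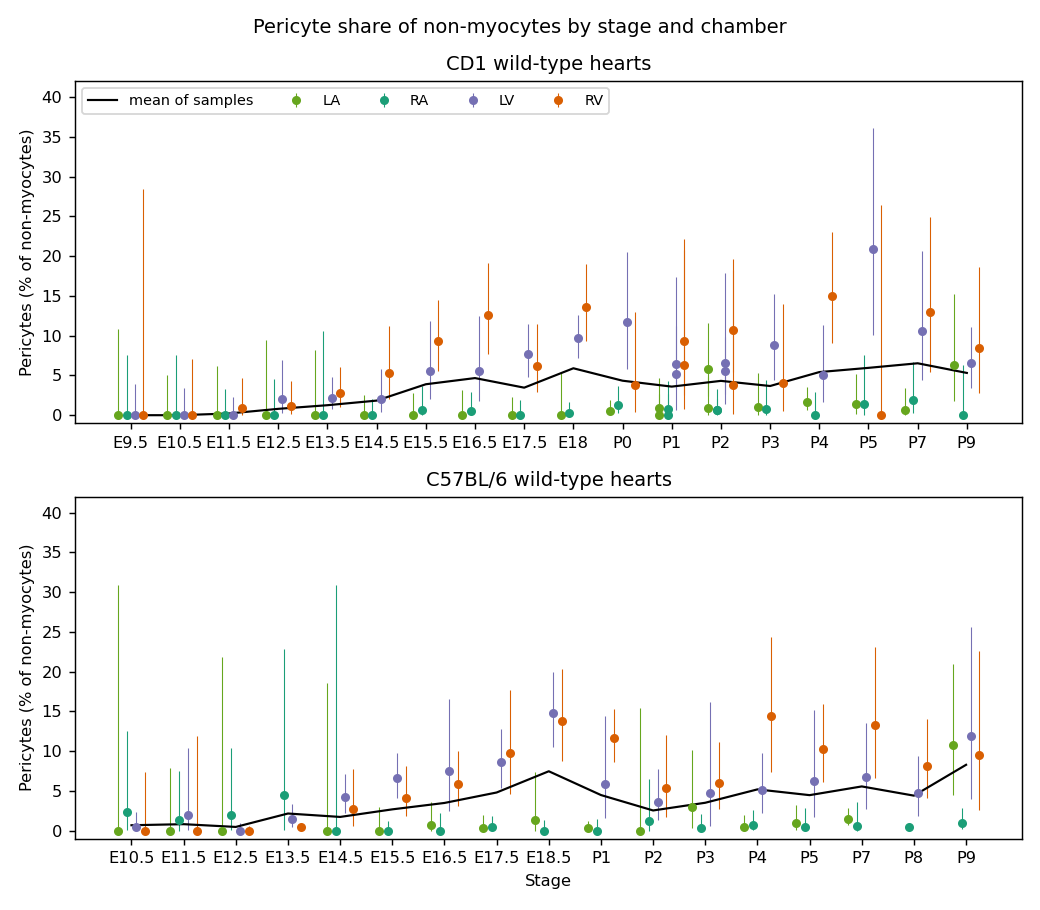
Pericytes as a percent of non-myocytes (y axis) by stage (x axis) in CD1 (top) and C57BL/6 (bottom) wild-type hearts. Each point is 1 sample with at least 10 non-myocytes, colored by chamber, with its exact 95% binomial interval, and the black line is the mean over the samples of a stage. From E14.5 on most ventricular points lie above the atrial points of their stage, and most atrial points stay near 0. The highest point is the CD1 LV at P5, with 20.9% (9 of 43 non-myocytes).

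The relation with stage order was strong in both strains. In CD1 Spearman's rho was 0.86 (permutation test over 18 stages, p = 4e-05, adjusted p = 0.00048) and Pearson's r was 0.89 (permutation p = 1e-05, the smallest the permutations can give, adjusted p = 0.00012). In C57BL/6 rho was 0.79 and r was 0.78 (permutation tests over 17 stages, p = 0.00018 and adjusted p = 0.00108 for each). Without the first and last stage r was 0.88 in CD1 (permutation p = 2e-05) and 0.69 in C57BL/6 (permutation p = 0.00435). Within the longest experiment of each strain, rho was 0.80 in CD1 (13 stages, permutation p = 0.00155) and 0.81 in C57BL/6 (13 stages, permutation p = 0.00151).

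The call rested on the early stages. From E14.5 on rho was 0.62 in CD1 and 0.56 in C57BL/6, and neither passed after adjustment (permutation tests over 13 stages, adjusted p = 0.0634 and 0.101). In C57BL/6 it also rested on giving each chamber the same weight, since with the cells of all chambers pooled rho was 0.47 (permutation test, adjusted p = 0.1004).

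P1 and P2 of CD1, sampled in separate experiments, show how far the share varied between pools. At P1 the mean over 4 samples was 4.34% in the E18 and P1 experiment and 2.85% in the E9.5 to P3 experiment. The pooled intervals at P1, 2.17 to 5.85% from 17 pericytes and 0.321 to 2.98% from 4 pericytes, overlapped. At P2 the means were 4.19% and 4.44%, from 12 and 25 pericytes. Wells loaded from the same pool were close to each other. Over the 5 wells of the E9.5 to P3 experiment pericytes made up between 1.87% and 2.85% of non-myocytes, and over the 4 wells of the E10.5 to P4 experiment between 2.14% and 2.51%.

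Pericytes were mostly ventricular cells. Of the CD1 pericytes 170 came from the LV, 139 from the RV, 25 from the LA and 15 from the RA, so that 88.5% were ventricular. Of the C57BL/6 pericytes 146 came from the LV, 183 from the RV, 28 from the LA and 20 from the RA, and 87.3% were ventricular. Over stages the share of non-myocytes averaged 6.15% ± 3.91 (SD) in CD1 ventricles and 0.643% ± 0.861 in CD1 atria. The difference of 5.51 percentage points was positive at 16 of 18 stages and 0 at E9.5 and E10.5 (exact sign-flip test, p = 3.05e-05, adjusted p = 0.000244). In C57BL/6 the averages were 6.19% ± 4.14 in ventricles and 1.18% ± 1.59 in atria. Here the difference was 5.005 percentage points and was positive at 14 of 17 stages (exact sign-flip test, p = 0.000565, adjusted p = 0.00226).

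The 3 C57BL/6 stages with a higher atrial share were E10.5, E12.5 and E13.5, and each rested on 1 RA pericyte, among 42, 51 and 22 non-myocytes. In CD1 no atrial pericyte was found before E15.5. Up to E13.5 that is 0 of 558 atrial non-myocytes, against 17 pericytes among 1288 ventricular ones. From E14.5 on the chambers separated almost fully. The 26 C57BL/6 ventricular samples ran from 2.73% to 14.8% with a median of 6.70%, and the 25 atrial samples ran from 0 to 10.8% with a median of 0.522%. The 30 CD1 ventricular samples ran from 0 to 20.9% with a median of 6.52%, and the 30 atrial samples from 0 to 6.25% with a median of 0.614%. Only 1 ventricular sample of these stages lacked pericytes, the CD1 RV at P5 with 12 non-myocytes, against 11 atrial samples in CD1 and 8 in C57BL/6.

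Atrial samples above 2% from E14.5 on were all from the LA. They were 7 of 121 non-myocytes (5.79%) at P2 and 4 of 64 (6.25%) at P9 in CD1, and 2 of 68 (2.94%) at P3 and 7 of 65 (10.8%) at P9 in C57BL/6. The other CD1 experiment that sampled the LA at P2 had 1 pericyte among 114 non-myocytes (0.877%). The RA had no pericyte among 57 non-myocytes at P9 in CD1 and 3 among 299 (1.003%) in C57BL/6. Across all stages the RA and LA did not differ beyond the spread between stages. The RA minus LA difference was -0.41 percentage points in CD1 (exact sign-flip test over 18 stages, p = 0.4004, adjusted p = 0.534) and -0.59 in C57BL/6 (exact sign-flip test over 15 stages, p = 0.576, adjusted p = 0.658).

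The ventricles did not differ beyond the spread between stages. In CD1 the share was 6.12% ± 5.19 in the LV and 6.18% ± 5.03 in the RV (difference -0.066 percentage points, exact sign-flip test over 18 stages, p = 0.972, adjusted p = 0.972). In C57BL/6 it was 5.57% ± 3.83 in the LV and 6.81% ± 5.06 in the RV (difference -1.24 percentage points, exact sign-flip test over 17 stages, p = 0.164, adjusted p = 0.262). P5 stood apart in CD1, with 9 of 43 non-myocytes in the LV (20.9%) and none of 12 in the RV. The RV was higher at 11 CD1 stages and the LV at 5, and with at least 30 non-myocytes per sample the difference was -1.60 percentage points (exact sign-flip test, adjusted p = 0.180). At P0 the CD1 LV had the higher share, with 10 of 85 non-myocytes (11.8%) against 2 of 53 (3.77%) in the RV. At P4 the RV had the higher share in both strains, with 17 of 113 non-myocytes (15.04%) against 5 of 100 (5%) in the CD1 LV and 11 of 76 (14.47%) against 8 of 157 (5.10%) in the C57BL/6 LV. With all cells as the denominator, the C57BL/6 LV minus RV difference was -1.77 percentage points and passed the test (exact sign-flip test, adjusted p = 0.0203).

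The makeup of the samples moved with chamber and age. Non-myocytes were 22.1% of the cells in CD1 ventricles before birth and 82.0% after it, when LV and RV samples had also passed an added, coarser strainer, and 39.7% and 59.3% in CD1 atria. In C57BL/6 they were 59.2% and 89.6% in ventricles and 50.2% and 61.5% in atria. Samples of all stages and chambers also passed a finer strainer. The paper states that fewer late neonatal ventricular myocytes were sampled because they were too large for the droplet device. Neither point was tested here. With all cells as the denominator, the ventricular minus atrial difference was 3.69 percentage points in CD1 and 4.25 in C57BL/6 (exact sign-flip tests, adjusted p = 0.000244 and 0.00207).

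The ratio of pericytes to Vas_ECs leaves all other cell types out of the denominator. Over all stages there were 0.296 pericytes per Vas_EC in CD1 (349 and 1180 cells) and 0.260 in C57BL/6 (377 and 1451 cells). In CD1 this ratio was 0.1 at E11.5, 0.133 at E12.5, 0.158 at E13.5 and 0.176 at E14.5, then 0.289 at E15.5 and 0.356 at E18. It was 0.202 at P0 and 0.223 at P1, peaked at 0.824 at P4 (28 pericytes, 34 Vas_ECs) and 1 at P5 (12 and 12 cells), and was 0.233 at P9. In C57BL/6 it was 0.149 at E13.5 and 0.213 at E14.5, peaked at 0.600 at E18.5 (57 pericytes, 95 Vas_ECs) and ran from 0.124 at P8 to 0.422 at P7 after birth.

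For testing, the ratio was written as the pericyte percent of pericytes and Vas_ECs together, at stages with at least 10 such cells. It rose with stage in CD1, from 9.09% at E11.5 to 26.3% at E18 and 50.0% at P5 (rho = 0.73, permutation test over 16 stages, p = 0.00196, adjusted p = 0.00609), and Pearson's r was 0.68 (permutation p = 0.00303, adjusted p = 0.00519). In C57BL/6 a rise was not called (rho = 0.23, permutation test over 15 stages, p = 0.403, adjusted p = 0.538), and Pearson's r was 0.27 (permutation p = 0.337, adjusted p = 0.404). The C57BL/6 values before birth went from 4% at E12.5 to 37.5% at E18.5, and the postnatal ones lay between 11.1% and 29.7%. Within the CD1 E9.5 to P3 experiment rho was 0.62 (11 stages, permutation p = 0.0480) and Pearson's r was 0.58 (permutation p = 0.0675). From E14.5 on rho was 0.49 in CD1 (permutation test, adjusted p = 0.151).

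**Figure D2:**
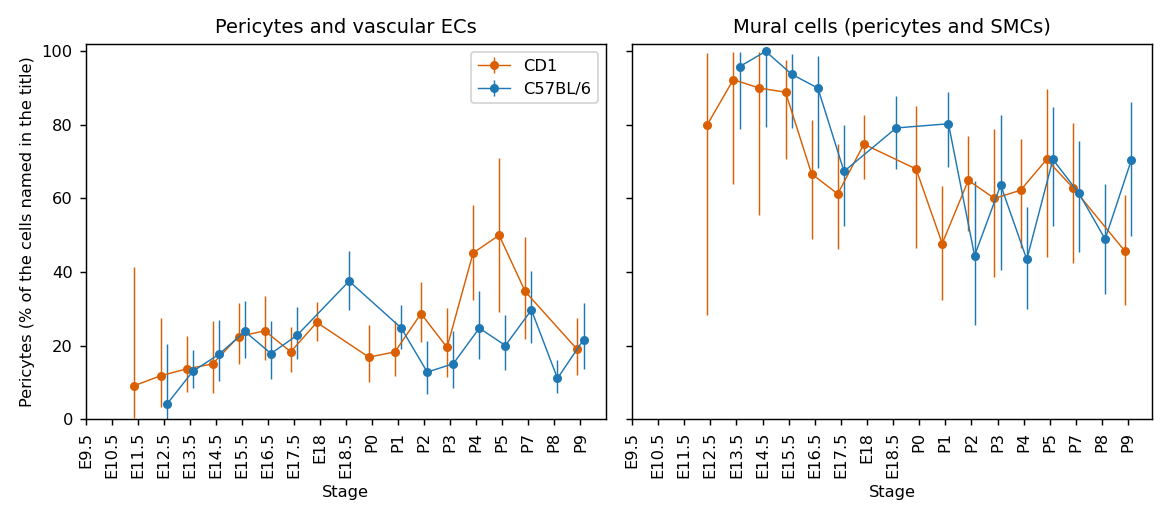
Pericytes as a percent of pericytes and vascular ECs (left) and of mural cells, pericytes plus SMCs (right), by stage for CD1 (orange) and C57BL/6 (blue), with cells summed over chambers and exact 95% binomial intervals. The left values rise before birth and then scatter, up to 50.0% in CD1 at P5, and the right values fall from over 80% at E13.5 to E15.5 to between 43.4% and 80.3% after birth.

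The ratio was higher in ventricles in both strains when cells were summed, while the test over stages passed in C57BL/6 and not in CD1, and both calls changed under some other settings. Summed over stages, CD1 had 0.325 pericytes per Vas_EC in ventricles (309 and 951 cells) and 0.175 in atria (40 and 229 cells). C57BL/6 had 0.296 in ventricles (329 and 1110 cells) and 0.141 in atria (48 and 341 cells). The pericyte percent of both cell types was 27.1% ± 7.86 in C57BL/6 ventricles and 13.2% ± 7.94 in atria, higher in ventricles at 8 of 10 stages (difference 13.9 percentage points, exact sign-flip test, p = 0.00977, adjusted p = 0.0260). This call was lost when at least 20 cells were asked for in each chamber pair, which left 6 stages with a mean difference of 14.6 percentage points (exact sign-flip test, adjusted p = 0.0833). It was also lost with either C57BL/6 experiment left out (15.8 percentage points over 6 stages without P5 to P9 and 11.1 over 4 stages without E10.5 to P4, exact sign-flip tests, adjusted p = 0.125 and 0.333). An exact sign-flip test cannot go below p = 0.03125 over 6 stages, the value with at least 20 cells, or below p = 0.125 over 4. Neither floor could pass after adjustment here, so with so few stages these losses were fixed in advance. In CD1 the pericyte percent of both cell types was 27.0% ± 8.22 in ventricles and 17.4% ± 14.9 in atria, higher in ventricles at 8 of 11 stages. The CD1 difference did not pass after adjustment (9.60 percentage points, exact sign-flip test, p = 0.04004, adjusted p = 0.0801). At the 6 stages from E15.5 to P1 the CD1 difference was positive throughout, from 12.55 percentage points at P1 to 24.9 at E18, while at P3, P4 and P9 the atria had the higher value.

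Vas_ECs were also fewer in the atria. They made up 19.9% of ventricular and 4.18% of atrial non-myocytes in CD1, and 12.7% and 5.04% in C57BL/6. The RV at E13.5 alone gave 3213 of the 8715 ventricular non-myocytes of C57BL/6 but 121 of their 1110 Vas_ECs. Summed over stages, the RA had 10.2 Vas_ECs per pericyte in CD1 and 13.4 in C57BL/6, and the LA had 3.04 and 2.64, against 2.48 to 3.62 in the 4 ventricular groups. These sums weight stages by their cells, and the C57BL/6 RA at P8 alone gave 119 of its 267 Vas_ECs. Over the stages at which both atria had at least 5 such cells, the difference between RA and LA did not pass in CD1 (4 stages, exact sign-flip test, p = 0.750) or in C57BL/6 (7 stages, exact sign-flip test, p = 0.0625).

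Pericytes were 85% of the mural cells in CD1 and 96.6% in C57BL/6 up to E13.5, and 58.7% and 60.9% after birth. In CD1 they were 12 of 13 mural cells at E13.5 (92.3%), 24 of 27 at E15.5 (88.9%), 77 of 103 at E18 (74.8%) and 21 of 46 at P9 (45.7%). In C57BL/6 they were 23 of 24 at E13.5 (95.8%), all 16 at E14.5, 57 of 72 at E18.5 (79.2%) and 19 of 27 at P9 (70.4%). The fall with stage passed the test in both strains. Spearman's rho was -0.72 in CD1 (permutation test over 15 stages, p = 0.00342, adjusted p = 0.00609) and -0.74 in C57BL/6 (permutation test over 14 stages, p = 0.00355, adjusted p = 0.00609). Pearson's r was -0.75 in CD1 (permutation p = 0.00153, adjusted p = 0.00459) and -0.75 in C57BL/6 (permutation p = 0.00285, adjusted p = 0.00519). Within the longest experiments rho was -0.82 in CD1 (10 stages, permutation p = 0.00606) and -0.93 in C57BL/6 (10 stages, permutation p = 0.00034).

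The first SMCs were as early as the first pericytes in CD1, with 1 SMC at E11.5, and later in C57BL/6, with 1 SMC at E13.5. That CD1 SMC was an LA cell of the mural cluster. The CD1 pericyte of E11.5 lay outside this cluster, where pericytes of CD1 began at E12.5. From E9.5 to E13.5 there were 17 pericytes and 3 SMCs in CD1 and 28 pericytes and 1 SMC in C57BL/6. In CD1 these pericytes were all ventricular and these SMCs all atrial. After birth there were 168 pericytes and 118 SMCs in CD1 and 195 and 125 in C57BL/6. The CD1 call needs the stages with few mural cells: with at least 15 of them rho was -0.49 over 12 stages (permutation test, adjusted p = 0.188).

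The pericyte shares of both strains moved together across stages. Both rose with stage, and a relation between strains beyond that shared rise was not tested. The CD1 stage E18 was matched to the C57BL/6 stage E18.5, which gave 16 pairs of stages. Across these the pericyte shares of non-myocytes had a rho of 0.80 (permutation p = 0.00036), and Pearson's r was 0.84 (permutation p = 0.00011). Without the 2 stages farthest from the CD1 median, E10.5 and E11.5, r was 0.78 (permutation p = 0.00098). The mean share was 3.55% ± 2.13 in CD1 and 3.66% ± 2.31 in C57BL/6, higher in CD1 at 9 stages and in C57BL/6 at 7 (difference -0.11 ± 1.28 SD, exact sign-flip test, p = 0.728, adjusted p = 0.728). Of pericytes and Vas_ECs, pericytes were 24.8% ± 11.47 in CD1 and 20.4% ± 8.13 in C57BL/6 (14 stages, difference 4.40 ± 11.3 percentage points, exact sign-flip test, p = 0.174, adjusted p = 0.329). Of mural cells they were 68.3% ± 14.9 and 73.9% ± 18.3 (13 stages, difference -5.56 ± 15.3 percentage points, exact sign-flip test, p = 0.219, adjusted p = 0.329). The ventricular minus atrial difference in the share averaged 5.76 percentage points in CD1 and 4.94 in C57BL/6, and the difference between strains was not called (0.82 ± 2.07 percentage points, positive at 12 of 16 stages, exact sign-flip test, p = 0.130). Its value depended on the denominator. Without blood cells it was 1.28 percentage points and passed (exact sign-flip test, p = 0.0381), and with all cells as the denominator it was -0.213 percentage points (exact sign-flip test, p = 0.713).

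The strain comparison has limits of design. Each strain was profiled in its own experiments, so strain and experiment cannot be told apart. Without the CD1 E9.5 to P3 experiment 7 matched stages from E18 on remained, and over these rho was 0.25 (exact permutation p = 0.595).

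The median pericyte had 8091 UMIs (quartiles 5633 and 12622) and 2853 detected genes in CD1, and 8088 UMIs (quartiles 5764 and 11637) and 2679 detected genes in C57BL/6. Pericytes were thus shallower cells than Fb_like cells, with medians of 12952 and 10010 UMIs, and than Vas_ECs, with 12591 and 10330 (first value CD1). SMCs had 7176 and 6078, below the pericyte medians. At matched stages the pericyte median of UMIs was below that of Vas_ECs at all 14 CD1 stages and 10 of 14 C57BL/6 stages, and below that of Fb_like cells at 12 and 10 of 14. Against SMCs the pericyte median was lower at 7 of 11 CD1 stages and higher at 8 of 10 C57BL/6 stages. The mitochondrial percent was higher in pericytes than in Fb_like cells at 14 of 14 and 12 of 14 stages and lower than in SMCs at 10 of 11 and 9 of 10 stages. These comparisons between cell types are descriptions, since the types were defined on the same cells.

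Pericytes were deepest at the stages at which they first became countable. In C57BL/6 the median was 13690 UMIs at E13.5 and 13762 at E14.5, 8594 at E17.5, 4418 at P2 and 7739 at P9. UMIs fell with stage, with a rho of -0.75 (permutation test over 14 stages, p = 0.00314, adjusted p = 0.00609) and Pearson's r of -0.77 (permutation p = 0.00117, adjusted p = 0.00459). Detected genes fell too, from 3744 at E13.5 to 2610 at P9, with a rho of -0.76 (permutation p = 0.00265, adjusted p = 0.00609) and Pearson's r of -0.76 (permutation p = 0.00198, adjusted p = 0.00475). In CD1 the median was 14519 UMIs at E13.5 and 12920 at E14.5, 4575 at E17.5, 10009 at E18 and 6936 at P9. The relation was not called there. For UMIs rho was -0.15 (permutation test over 14 stages, p = 0.619, adjusted p = 0.666) and Pearson's r was -0.36 (permutation p = 0.203, adjusted p = 0.271). For detected genes rho was -0.13 (permutation p = 0.666, adjusted p = 0.666) and Pearson's r was -0.22 (permutation p = 0.444, adjusted p = 0.485). Within the CD1 E9.5 to P3 experiment, over 8 stages, rho was -0.55 (permutation p = 0.169) and Pearson's r was -0.74 (permutation p = 0.0364) for UMIs, and they were -0.55 (permutation p = 0.170) and -0.68 (permutation p = 0.0642) for detected genes. Within the C57BL/6 E10.5 to P4 experiment, over 10 stages, rho was -0.93 for UMIs (permutation p = 0.00034) and for detected genes (permutation p = 0.00038).

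**Figure D3:**
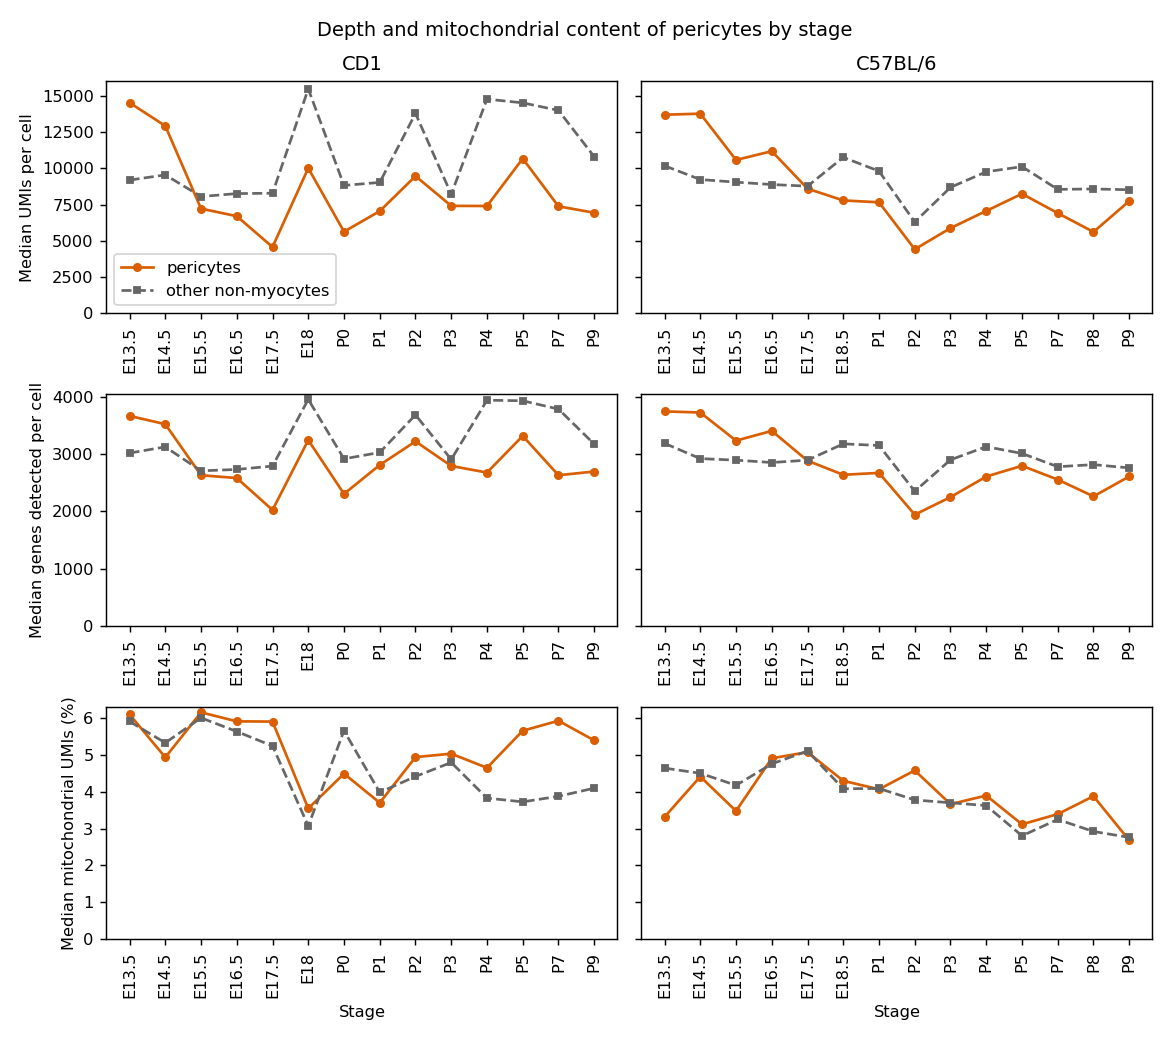
Median UMIs per cell, detected genes per cell and mitochondrial percent (rows, y axes from 0) of pericytes (orange) and of all other non-myocytes of the same stage (grey) in CD1 (left) and C57BL/6 (right), at the 14 stages of each strain with at least 5 pericytes. Pericytes lie above the other non-myocytes in UMIs at E13.5 and E14.5 in both strains and below them at every postnatal stage.

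The other non-myocytes of a stage, taken over all its wells and experiments, give a reference from the same stage. At P1 and P2 of CD1 this reference mixed experiments, and its cell types were not matched between stages. Against the other non-myocytes, pericytes had more UMIs early and fewer later in both strains. The difference in medians was 5332 UMIs at E13.5 and 3377 at E14.5 in CD1 and negative at the 12 later stages, down to -7365 at P4. In C57BL/6 it was positive at the 4 stages from E13.5 to E16.5, with 4537 at E14.5, and negative at the 10 later stages, with -2968 at E18.5. This difference fell with stage in both strains, with rho of -0.70 in CD1 and -0.59 in C57BL/6 (permutation tests over 14 stages, adjusted p = 0.0128 and 0.0365). Sequencing depth also moved between experiments. By the paper's methods, the CD1 P2 to P9 and C57BL/6 E10.5 to P4 libraries were run on NovaSeq and the others on HiSeq X. The part of the platform in the depth of either strain was not tested. The median pericyte of CD1 had 7022 UMIs in the E9.5 to P3 experiment, 9646 in the E18 and P1 experiment and 8108 in the P2 to P9 experiment, and at P2 it had 6070 in the first and 13766 in the last. The part of these depth differences in the stage relations of CD1 was not tested.

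The mitochondrial percent of pericytes had no called relation with stage as deposited. In CD1 stage medians ran from 3.55% to 6.16%, rho was -0.18 (permutation test over 14 stages, p = 0.533, adjusted p = 0.639) and Pearson's r was -0.135 (permutation p = 0.643, adjusted p = 0.643). In C57BL/6 they ran from 2.68% to 5.08%, rho was -0.43 (permutation test over 14 stages, p = 0.128, adjusted p = 0.192) and Pearson's r was -0.46 (permutation p = 0.0989, adjusted p = 0.148). Within the longest experiments rho was -0.48 in CD1 (8 stages, permutation p = 0.244) and 0.079 in C57BL/6 (10 stages, permutation p = 0.840). Taken as the difference from the other non-myocytes of the stage, it rose with stage in both strains (rho = 0.70 and 0.55, permutation tests, adjusted p = 0.0128 and 0.0488).

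In each strain the authors' re-clustering of Fb_like cells split the pericytes in a larger and a smaller sub-cluster. In CD1 sub-cluster 7 held 234 pericytes and sub-cluster 13 held 115 (33.0%). In C57BL/6 sub-cluster 11 held 288 and sub-cluster 16 held 89 (23.6%). Neither was a stage or a chamber of its own. The smaller sub-cluster was 25% to 50% of CD1 pericytes at each stage from E13.5 to P9 except P4, with 17.9%, and 13.0% to 38.9% of C57BL/6 pericytes from E13.5 on except E14.5, where it held none of 16. Atrial cells were 10.7% of sub-cluster 7 and 13.0% of sub-cluster 13, and 12.2% of sub-cluster 11 and 14.6% of sub-cluster 16.

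The sub-clusters differed in the same measures in both strains. The smaller one was deeper, with medians of 12564 against 6927 UMIs in CD1 and 11596 against 7391 in C57BL/6. It was deeper in each of the 5 experiments taken alone, for example 16315.5 against 7205 UMIs in the CD1 P2 to P9 experiment. Its median percent of UMIs on ribosomal genes was lower, with 15.7% against 19.5% in CD1 and 17.2% against 21.3% in C57BL/6. Its median doublet score was higher, with 0.160 against 0.0883 in CD1 and 0.205 against 0.140 in C57BL/6. These are descriptions, since the sub-clusters were defined on the genes of the same cells.

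**Figure D4:**
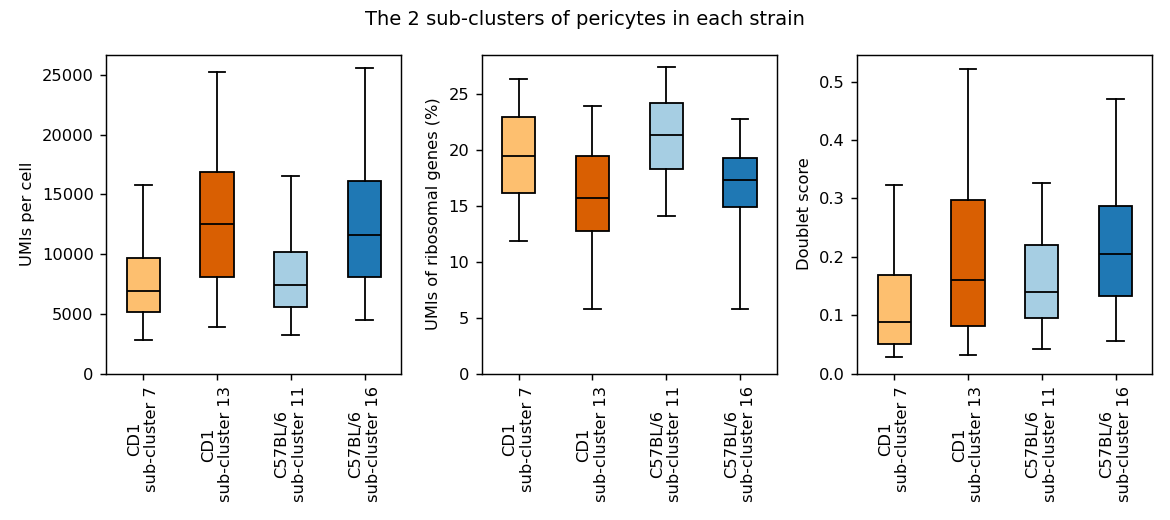
UMIs per cell, percent of UMIs on ribosomal genes and doublet score (y axes from 0) for the pericyte sub-clusters of CD1 (orange) and C57BL/6 (blue), the larger one first in each strain. Boxes are quartiles with the median, and whiskers leave out 5% of cells at each end. The smaller sub-cluster has more UMIs, a lower ribosomal percent and a higher doublet score in both strains.

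Few pericytes were among the cells most like doublets. When the top 10% of all doublet scores in a strain were singled out, 4 of those cells were pericytes in CD1 (1.15% of pericytes, against 3.53% of all non-myocytes) and 20 in C57BL/6 (5.31% against 6.95%). With the pericytes of the smaller sub-cluster removed from the data, also from the denominators, all 25 tested comparisons kept their direction and their side of the threshold. This setting was chosen after seeing the data.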

How the data were processed

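Wild-type CD1 and C57BL/6 mouse hearts were profiled by droplet single cell RNA-seq (10x 3′ v3) with MULTI-seq sample barcodes. The authors aligned reads with Cell Ranger 3.1.0 to GRCm38.p4, demultiplexed with deMULTIplex, filtered cells with scater (at least 2000 UMIs, at most 30% mitochondrial), removed doublets with scds, and clustered and annotated cells with Seurat and Harmony. Tables with 1 line per cell were the starting point. Per cell, the authors gave the raw UMI count without scaling and the number of detected genes. They also deposited the percent of UMIs on mitochondrial and on ribosomal genes, and a doublet score from scds. Tables of *Wt1* and *Tbx18* mutant hearts hold no pericyte class and were not used here.

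Pericytes were taken from the final annotation of each strain, and cells marked for exclusion were left out. The members, tests and lists were chosen with earlier results of these data known. Cell types are those of the authors, and genes are named only as their markers. Wells were tied to experiments by the study's methods. Shares need at least 10 non-myocytes per sample, ratios at least 10 pericytes and Vas_ECs (5 mural cells) per stage, and medians at least 5 pericytes per stage. The stage was the unit, because cells are not replicates, and stages of 1 experiment share libraries, so p-values measure the spread between these pools only. Relations with stage order used two-sided permutation tests (100000 resamples, exact under 8 stages), adjusted by Benjamini-Hochberg over 12 relations. Chamber (8) and strain (3) differences used exact two-sided sign-flip tests over stages, adjusted over 8 and 3, with a threshold of 0.05. Intervals (exact binomial, 95%) and limits for a count of 0 (3 counts of the total) cover counting error only, and shares of small samples are imprecise. The permutation test of rho between share and stage and the sign-flip test of ventricles against atria were run on simulated shares. The other tests were not. Python 3.11.15 with numpy 2.4.6, pandas 2.3.3, scipy 1.17.1 and matplotlib 3.10.9 was used. Alternatives were stricter cell and doublet filters, other denominators and minimums, later stages only and each experiment left out.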

Additional observations from a re-analysis of the deposited data

How the results depend on the processing

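Of 238 values recomputed under other settings, 206 kept their direction and their side of the threshold. The ventricular minus atrial difference in the share of non-myocytes stayed past the threshold under all 12 alternatives in CD1 (3.69 to 8.42 percentage points) and under 10 of 11 in C57BL/6. No replicate block was fitted, since each experiment is 1 sample and its replicate number is only a name. Chamber and strain differences were taken within stages. The alternative annotation column for C57BL/6 was not run, because the table used here gives 1 final annotation, and without the C57BL/6 E10.5 to P4 experiment fewer than 6 stages were left for relations with stage. The settings that pool chambers in chamber and strain comparisons, move pericytes outside the mural cluster to Fb_like cells or keep only the larger sub-cluster were chosen after seeing the data. The cause was not tested for any change below, apart from fewer stages where an experiment or early stages were left out.

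From E14.5 on, the relation with stage had rho 0.62 in CD1 and 0.56 in C57BL/6 for the share of non-myocytes, and 0.49 and -0.077 for the share of pericytes and Vas_ECs. With chambers pooled, rho for the C57BL/6 share was 0.47 and the CD1 minus C57BL/6 difference in the share was 0.377. With all cells as the denominator, the strain difference of the ventricular minus atrial difference was -0.213, and LV minus RV in C57BL/6 was -1.77. The former was 1.28 without blood cells. With pericytes outside the mural cluster moved, LV minus RV in CD1 was 0.0329 and the CD1 ventricular minus atrial difference in the share of pericytes and Vas_ECs was 10.2. At least 20 pericytes and Vas_ECs gave 14.6 for C57BL/6, and at least 15 mural cells gave rho -0.49 in CD1. The former left 6 stages and the smallest p such a test can give (exact sign-flip test, p = 0.03125). At least 15 pericytes per stage gave CD1 rho of 0.28 for UMIs and 0.32 for detected genes, and without the highest doublet scores rho for genes was 0.029. As differences from the other non-myocytes of the stage, rho in CD1 was -0.70 for UMIs, -0.62 for detected genes and 0.70 for the mitochondrial percent, which was 0.55 in C57BL/6.

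With each experiment left out in turn, the values ran as follows. In CD1 rho with stage was 0.36 to 0.90 for the share of non-myocytes, 0.11 to 0.72 for that of pericytes and Vas_ECs, -0.81 to -0.46 for that of mural cells and -0.50 to 0.86 for the mitochondrial percent, and the lowest value of each share relation came without the E9.5 to P3 experiment, except for mural cells, where that experiment gave the weakest relation of -0.46. Spearman's rho for the mitochondrial percent of C57BL/6 was 0.079, and the relation between strains had rho 0.25 to 0.80. LV minus RV in CD1 was -0.77 to 0.21 and RA minus LA in C57BL/6 was -3.69 to 0.19. The ventricular minus atrial difference in C57BL/6 was 4.44 to 6.83 for the share of non-myocytes and 11.1 to 15.8 for that of pericytes and Vas_ECs, where the call was lost without either experiment, and in CD1 it was 4.38 to 14.98 for the latter, with the call gained without the P2 to P9 experiment. Without the C57BL/6 E10.5 to P4 experiment 4 stages remain, and an exact sign-flip test cannot go below p = 0.125.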

Other observations

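The balance of pericytes between the ventricles lay on opposite sides before and after birth in C57BL/6. At 7 of 9 prenatal stages the LV had the higher pericyte share of non-myocytes and at 1 the RV, with mean shares of 5.06% and 4.10%. At E10.5 and E11.5 the LV value was 1 pericyte each, among 231 and 51 non-myocytes, against none among 48 and 29 in the RV. At 7 of 8 postnatal stages the RV had the higher share, with means of 6.13% in the LV and 9.86% in the RV, and P9 was the exception. CD1 did not show this order. There the RV had the higher share at 6 of 10 prenatal stages (means 3.47% in the LV and 5.19% in the RV) and at 5 of 8 postnatal stages (9.43% and 7.42%). This split was chosen after seeing the data and was not tested.

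The atria held unlike numbers of Vas_ECs for similar numbers of pericytes. The LA had 25 pericytes and 76 Vas_ECs in CD1 and 28 and 74 in C57BL/6, and the RA had 15 and 153 in CD1 and 20 and 267 in C57BL/6. The stages at which both atria had at least 5 such cells were few. In C57BL/6 the pericyte percent of both types averaged 7.21% ± 5.76 in the RA and 28.8% ± 25.6 in the LA over 7 stages, with the LA higher at 5, the RA at 1 and a tie at 1 (exact sign-flip test, p = 0.0625, adjusted over the strains 0.125). In CD1 it was 11.55% ± 5.66 and 13.7% ± 10.7 over 4 stages, with the LA higher at 3 (exact sign-flip test, p = 0.750, adjusted 0.750). The widest gap was at P9 in C57BL/6, with 7 pericytes and 2 Vas_ECs in the LA and 3 and 48 in the RA. The test was added after seeing the data, and with 4 stages the exact sign-flip test of CD1 could not go below p = 0.125.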
